A study of Arabidopsis thaliana with 17 samples.

Results

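The 9 genes described here are COR47 (AT1G20440), ERD10 (AT1G20450), RAB18 (AT5G66400), COR15A (AT2G42540), KIN1 (AT5G15960), KIN2 (AT5G15970), RD29A (AT5G52310), RD29B (AT5G52300) and NCED3 (AT3G14440). They were chosen by name as dehydrins and cold or abscisic acid (ABA) induced genes, 9 of the 37336 features in the deposited tables. All libraries are RNA-seq of whole roots from 14-day-old Arabidopsis thaliana plants, grown on half-strength MS agar with sucrose and labelled as mock treated. The groups are bamboo (2 libraries, replicates 2 and 3), in which the long non-coding RNA BAMBOO is affected, its wild type Col-0-b (3 libraries) and another wild-type set, Col-0 (3 libraries). Both wild-type sets carry the genotype label Col-0, and the labels do not say what sets them apart. The study's design calls bamboo a mutant, and the name of its table carries the letters KD, often used for a knock-down; the labels do not settle which it is, or whether it is 1 line. No group is labelled with a cold, drought or ABA treatment, so every level below is a level without such a labelled treatment. The labels do not say whether the roots were free of stress.

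Dehydrins are hydrophilic proteins of the late embryogenesis abundant (LEA) class that protect membranes and enzymes when cells lose water. Their genes are switched on by ABA, through transcription factors of the ABF family that bind ABA-responsive elements, and by cold, through the CBF/DREB factors that bind the dehydration-responsive element. ABA is made from carotenoids, and the cleavage step by 9-cis-epoxycarotenoid dioxygenases such as NCED3 limits its synthesis in dehydrating tissue. When ABA is bound by PYR/PYL receptors, the clade A PP2C phosphatases are inhibited, and SnRK2 kinases are then free to activate the ABF factors.

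Several of the genes are chromosomal neighbours. In the order of genes in the RefSeq annotation TAIR10.1, COR47 and ERD10 on chromosome 1, RD29A and RD29B on chromosome 5, and KIN1 and KIN2 on chromosome 5 are adjacent, with 0 genes between them. COR15A is adjacent to its relative COR15B on chromosome 2. KIN1 and KIN2 are close in sequence, so reads of one may have been counted for the other and their separate values are uncertain. RAB18 overlaps the neighbouring gene AT5G66410 in that annotation, and the strand setting of the counting is not given, so that its value is uncertain as well.

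Depth was 16963843 to 24333119 reads in the bamboo and Col-0-b libraries and 13637179 to 21206367 in Col-0. Bamboo replicate 2 stood apart on the first principal component of the 5 libraries (34.7, against 6.45 for bamboo replicate 3 and -21.9 to -8.56 for Col-0-b). All 10 root markers examined, among them the endodermal regulator MYB36, had reads in each library. The summed normalized count of 10 photosynthetic genes, taken as markers of shoot tissue, was 4024 in Col-0-b replicate 1, against 2114 and 1975 in the other Col-0-b libraries and 2536 and 2660 in bamboo. CAB2, a chlorophyll-binding protein, was at 139.9 normalized counts in Col-0-b replicate 1 and between 1.23 and 5.08 in the other 4 libraries. None of the 8 shoot markers tested was called between bamboo and Col-0-b (limma adjusted p under 0.05), a call that 0.133% of all tested genes received. CAB2 and RBCS3B, the latter at 130.9 normalized counts in Col-0-b replicate 1, were too low in the other libraries to be tested. At that share, a count of 0 cannot show whether shoot tissue differed between the groups. In whole roots, fewer cells of a type and less RNA per cell cannot be told apart.

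In roots of bamboo, 0 of the 7 tested genes changed against Col-0-b in limma's test with Benjamini-Hochberg adjustment over 20274 genes at 0.05, a threshold that 0.133% of all tested genes passed. COR47 and KIN2 came nearest, with adjusted p-values of 0.0837 and 0.0960, and their levels were 1.39-fold and 1.48-fold those of Col-0-b. By unadjusted p under 0.05, 4 of the 7 genes were higher in bamboo (COR47, ERD10, KIN2 and RD29A) and 0 were lower, against 8.6% of all tested genes higher and 8.21% lower. The same 4 genes had an unadjusted p under 0.05 in edgeR's quasi-likelihood test on recovered reads, which called 0 of the 7 and 0.138% of all genes. DESeq2 on those reads called 2, COR47 and KIN2, with 1.66% of all genes given an adjusted p called.

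COR47, an acidic dehydrin induced by cold and ABA, had normalized counts (reads divided by the authors' size factor for the library) of 9804 and 9189.8 in bamboo. In Col-0-b replicates 1, 2 and 3 it had 7051, 5975 and 7621. Both bamboo libraries were above all 3 of Col-0-b. The means were 9497 ± 435 (SD, n = 2) and 6882 ± 836 (SD, n = 3), and the fold change on the scale log2(normalized count + 1) was 0.47 (SE 0.10, 95% interval 0.26 to 0.68, limma adjusted p = 0.0837). COR47 ranked 102 of the 20274 genes by p. Its adjusted p was 0.0023 in DESeq2, and 0.103 to 0.220 in limma with 1 Col-0-b library left out. The log2 fold change was 0.52 without bamboo replicate 3 and 0.42 without bamboo replicate 2, fits that leave 1 bamboo library.

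ERD10, the adjacent dehydrin gene, whose protein is related to that of COR47, had 5965 and 5527 normalized counts in bamboo and 5036, 4644 and 5343 in Col-0-b. The bamboo libraries lay above those of Col-0-b, by a small margin. This amounted to a log2 fold change of 0.20 with an SE of 0.08 and a 95% interval of 0.02 to 0.38 (limma adjusted p = 0.245).

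RAB18, a dehydrin whose transcript is strongly induced by ABA, was a low transcript in both groups. It had 12.1 and 28.0 normalized counts in bamboo (13 and 33 reads) and 42.0, 9.86 and 23.3 in Col-0-b (42, 8 and 23 reads). The groups overlapped, and Col-0-b replicate 1, the library with the most shoot-marker reads, was the highest of all 5. Whether the shoot-marker reads have a part in that value was not tested. On the log2 scale the difference was -0.21 (SE 0.57, 95% interval -1.503 to 1.09, limma adjusted p = 0.892). It turned to 0.26 without Col-0-b replicate 1 and to 0.37 without bamboo replicate 2, so the data fix no direction for RAB18.

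KIN2, also known as COR6.6, and KIN1 encode small hydrophilic proteins induced by cold and ABA. KIN2 had 1736 and 1612 normalized counts in bamboo and 995, 1366 and 1065 in Col-0-b. Both bamboo libraries were above all of Col-0-b, in which replicate 2 was the highest. On the log2 scale the difference was 0.56 (SE 0.12, 95% interval 0.30 to 0.83, limma adjusted p = 0.0960). Without Col-0-b replicate 2 it was 0.70 with an adjusted p of 0.0162, and DESeq2 gave an adjusted p of 0.0036. Leaving out any other library gave adjusted p-values from 0.102 to 0.508, the highest without bamboo replicate 2.

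KIN1 had 218 and 210.1 normalized counts in bamboo and 201, 203 and 177 in Col-0-b, again with no overlap. The difference was 0.14 on the log2 scale with an SE of 0.12 and a 95% interval of -0.12 to 0.41 (limma adjusted p = 0.567). The intervals of KIN1 and KIN2 overlapped, and the difference between the fold changes of these neighbours was not tested.

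RD29A, a widely used reporter gene of drought and cold whose promoter holds both kinds of element, had 118 and 114 normalized counts in bamboo and 94.9, 88.7 and 92.3 in Col-0-b. The bamboo libraries were higher and each group was narrow, with means of 116 ± 3.41 (SD, n = 2) and 92.0 ± 3.11 (SD, n = 3). On the log2 scale the difference was 0.33 (SE 0.15, 95% interval 0.005 to 0.66, limma adjusted p = 0.291). RD29B, its more strictly ABA-dependent neighbour, had 9 and 6 reads in bamboo and 12, 4 and 1 in Col-0-b. RD29B did not reach 10 normalized counts in 2 libraries and was not tested, and a difference was not detectable at this depth.

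NCED3, the ABA synthesis enzyme, had 144 and 123 normalized counts in bamboo and 139, 161 and 145 in Col-0-b. The groups overlapped, and the log2 difference was -0.15 (SE 0.14, 95% interval -0.46 to 0.16, limma adjusted p = 0.617). COR15A, which encodes a LEA protein of the chloroplast, was listed at 0 reads in all 8 libraries, as was COR15B. In the annotation COR15B overlaps the gene AT2G42520, while no gene overlaps COR15A. Whether the transcripts of COR15A and COR15B were absent or their reads were not assigned to the genes was not tested. As a limit on assigned reads, a count of 0 in a single library allows up to 3 reads, which is 0.123 to 0.220 CPM (reads scaled to a common library size), for counting error only.

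**Figure D1:**
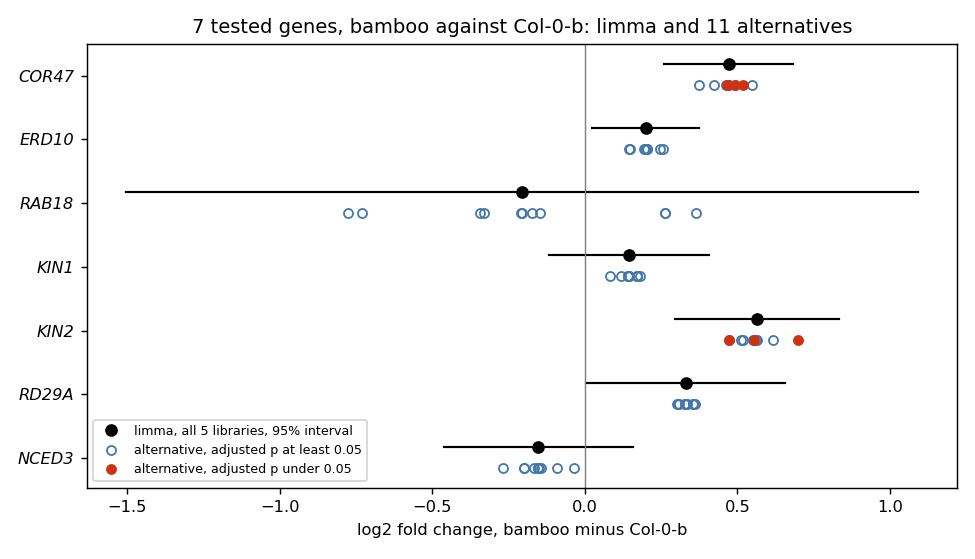
Log2 fold change of each of the 7 tested genes, bamboo minus Col-0-b (x axis), with limma's 95% interval over all 5 libraries in black and the values under 11 alternatives below it. Filled red points are alternatives with an adjusted p under 0.05, which occur for COR47 and KIN2. The values for RAB18 lie on both sides of 0.

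Of the 7 tested genes, 5 had bamboo libraries that were all above those of Col-0-b, and 0 had them all below. Among all tested genes, 17.1% showed the first pattern and 17.5% the other. The median log2 fold change of the 7 was 0.20, against -0.0006 for all tested genes. COR15A and RD29B do not enter these counts.

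The levels in the wild-type set Col-0 stood far above those in Col-0-b. All values below are CPM, from deposited counts for Col-0 and from recovered reads for Col-0-b and bamboo. No test was made, because the sets were deposited in separate tables, and table and wild-type set cannot be told apart. In Col-0, COR47 was at 1119, 1174 and 1204 CPM, and in Col-0-b at 340.1, 286 and 368 CPM. The Col-0 mean of 1165 ± 43.2 (SD, n = 3) was 3.52-fold the Col-0-b mean of 331 ± 41.7 (SD, n = 3), and bamboo was between them at 454 ± 11.7 (SD, n = 2). The lowest Col-0 library was 3.04 times the highest Col-0-b library. ERD10 followed the same order, at 497, 511 and 541 CPM in Col-0, 243, 222 and 258 in Col-0-b, and 281 and 268 in bamboo. Its Col-0 mean was 2.14-fold that of Col-0-b.

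RD29A and RD29B were also far apart between the wild-type sets. RD29A was at 52.0, 38.4 and 37.8 CPM in Col-0, and at 4.58, 4.24 and 4.45 CPM in Col-0-b, a ratio of 9.66. Bamboo was at 5.58 and 5.51 CPM, close to Col-0-b. RD29B was at 2.58, 2.36 and 2.86 CPM in Col-0 (54, 50 and 39 reads) and at 0.578, 0.236 and 0.0489 CPM in Col-0-b, a ratio of 9.03 that rests on few reads. Its log2 ratio of 3.17 became 4.19 without Col-0-b replicate 1.

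KIN1 was at 111, 68.3 and 50.2 CPM in Col-0, a set in which its libraries differed among themselves by more than those of the other groups. In Col-0-b it was at 9.69, 9.73 and 8.56 CPM, which gave a ratio of 8.21, and in bamboo at 10.3 and 10.2. KIN2 was at 219, 185 and 149.9 CPM in Col-0 and 48.0, 65.3 and 51.4 in Col-0-b, a ratio of 3.36, with bamboo at 81.8 and 78.2. In KIN2, as in COR47, ERD10, RD29A and KIN1, the 3 groups did not overlap, and their order was Col-0, bamboo, Col-0-b.

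RAB18 was at 3.96, 9.76 and 4.69 CPM in Col-0, above its 2.02, 0.472 and 1.13 in Col-0-b, a ratio of 5.09. Its log2 ratio of 2.35 became 2.94 without Col-0-b replicate 1. NCED3 was at 15.3, 22.4 and 23.0 CPM in Col-0 and 6.70, 7.72 and 6.99 in Col-0-b, a ratio of 2.83. For RAB18, NCED3 and RD29B the Col-0 libraries were above the rest, while bamboo and Col-0-b overlapped.

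**Figure D2:**
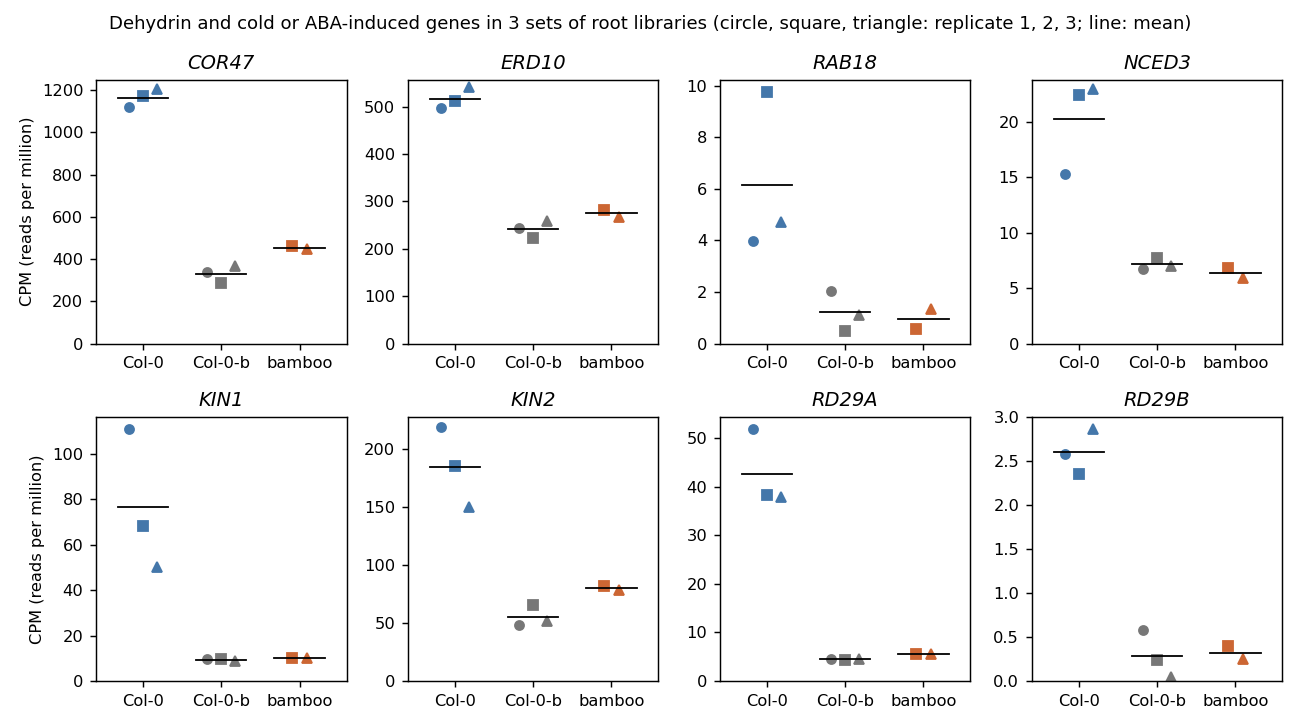
CPM (y axis, from 0, a scale of its own in each panel) of 8 of the 9 genes in each library of Col-0, Col-0-b and bamboo; COR15A, at 0 reads throughout, is not drawn. In each panel the 3 Col-0 libraries lie above the other 5, for example 1119 to 1204 CPM against 286 to 462 CPM for COR47.

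All 8 genes with reads were at least 2-fold higher by mean in Col-0 than in Col-0-b with libraries that did not overlap, a pattern found in 4.99% of the 20546 genes that reached 0.5 CPM in at least 2 of the 6 wild-type libraries. The opposite pattern was found in 4.71%. RD29B reached 0.5 CPM in 2 libraries only through Col-0, so its difference was in part fixed by that minimum. The other 7 reached it in both sets, among whose genes 4.23% were at least 2-fold higher. Scaling by TMM, an alternative added after seeing the data, gave the same 8 genes, and so did leaving out any 1 of the 6 libraries. These runs are a weak check on the count. Leaving out a library cannot make sets overlap that did not, and the TMM factors were only 0.989 to 1.01. The median log2 ratio over all genes was 0.02. The summed CPM of the 10 shoot markers was 67.4 to 88.2 in Col-0 and 95.3 to 194 in Col-0-b. The 194 was that of Col-0-b replicate 1, against 101 and 95.3 in replicates 2 and 3. Over the 8 shoot markers that reached 0.5 CPM, the median log2 ratio of Col-0 to Col-0-b was -0.86, a value that includes replicate 1. Only 1 of these 8, LHCB3, was at least 2-fold lower in Col-0 with libraries that did not overlap. The summed CPM of the 10 root markers was 526 to 788 in Col-0 and 1090.4 to 1144 in Col-0-b, and the part of both marker lists in the result was not tested. Most of the difference in root markers lay in the phosphate transporter PHT1-1 (192 against 564 CPM) and the nitrate transporter NRT2.1 (3.07 against 41.4 CPM), while the median log2 ratio over the list was -0.05.

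The bamboo and Col-0 comparisons share the Col-0-b libraries, so their values are set side by side only. The ratio of mean CPM to Col-0-b was 1.37 in bamboo and 3.52 in Col-0 for COR47, and 1.46 and 3.36 for KIN2. For RD29A it was 1.25 and 9.66, and for KIN1 1.10 and 8.21. For NCED3 the ratios were 0.894 and 2.83. The differences between bamboo and Col-0-b were small beside those between the wild-type sets. Over all tested genes, log2 fold changes of bamboo against Col-0-b ran from -0.34 to 0.40 between the 5th and 95th percentiles. The same percentiles of the log2 ratio of Col-0 to Col-0-b, across the 2 deposited tables, were -1.03 and 1.11. A wider spread between the wild-type sets was thus not particular to these genes.

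In 2 of the 3 neighbouring pairs with reads, the groups had different read ratios. The ratio of COR47 reads to ERD10 reads was 2.25, 2.3 and 2.23 in Col-0, 1.40, 1.29 and 1.43 in Col-0-b, and 1.64 and 1.66 in bamboo. The 3 groups did not overlap. Within each group the ratio was nearly constant, with an SD of 0.0354 in Col-0 and 0.0743 in Col-0-b. The KIN2 to KIN1 ratio ran the other way between the wild-type sets, at 1.97, 2.71 and 2.98 in Col-0 and 4.96, 6.72 and 6.0 in Col-0-b, and it was 7.96 and 7.67 in bamboo. The RD29A to RD29B ratio overlapped between all groups, at 13.2 to 20.2 in Col-0, 7.92 to 91 in Col-0-b, and 14.1 and 22.3 in bamboo, with few RD29B reads behind it. These ratios of reads compare a pair between libraries and are not levels per length. Reads of KIN1 and KIN2 may have been counted for each other, so their ratio is uncertain. No test was made of them.

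**Figure D3:**
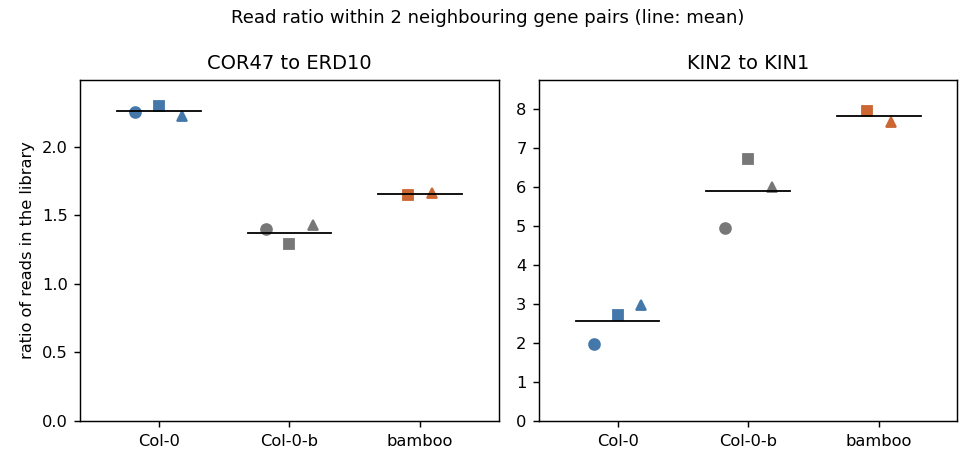
Ratio of reads of COR47 to ERD10 (left) and of KIN2 to KIN1 (right) in each library (y axes, from 0), by group, with the mean as a line. COR47 to ERD10 is highest in Col-0 (mean 2.26) and KIN2 to KIN1 is lowest there (mean 2.55). The KIN2 to KIN1 ratio is uncertain, since reads of one gene may have been counted for the other.

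Within groups the correlations between pairs of the genes ran from -0.95 to 0.95. Each library was expressed as its deviation from its group mean on the scale log2(CPM + 1), over the 8 libraries, and the correlations are descriptions only. The bamboo deviations mirror each other by construction. Outside Col-0, RAB18 had 8 to 42 reads and RD29B 1 to 12, so counting error enters their correlations. Whether the genes move together was not tested. COR47 and ERD10 had the highest correlation (Pearson's r = 0.95, Spearman's rho = 0.98), and r was 0.90 without the 2 libraries farthest from the median of COR47. KIN1 and RD29A followed (r = 0.91, rho = 0.67), but r fell to 0.39 without Col-0 replicates 1 and 3, so that relation rests on those libraries. RD29A and NCED3 ran in opposite directions (r = -0.95, rho = -0.83), with r = -0.79 without the same libraries. ERD10 and KIN2 did so too (r = -0.78, rho = -0.71).

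Each gene's correlation with the mean profile of the 8 genes ranged from -0.40 for NCED3 to 0.57 for COR47. The 5 genes most like that profile, of 15893 with a mean of at least 5 CPM, were ROC3 (r = 0.97), a cyclophilin, and AT5G18065, PIRL3, ZFP6 and HCF109 (r = 0.94 to 0.95). These names are a description over 8 libraries that share groups and depth, of a mean that its own genes followed poorly.

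Of the 84 other genes of the pathway, 65 were tested between bamboo and Col-0-b and 0 were called by limma, with a smallest adjusted p of 0.0837 (P5CS1). By unadjusted p under 0.05, 10 were higher and 1 was lower, against 8.6% and 8.21% of all tested genes. Of the 65, 39 had a positive fold change and 26 a negative one, with a median of 0.05. DESeq2 called 3 (HIRD11, P5CS1 and PYL6). Without bamboo replicate 3, limma called 6 of these 65 genes and 9.66% of all tested genes. Without bamboo replicate 2 it called 0, and 0.154% of all genes.

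Among the other 7 dehydrin genes, 5 were tested, 4 of them with a positive fold change, and their median was 0.31. AT4G38410 had the highest, with 31.7 and 30.5 normalized counts in bamboo and 16.0, 13.6 and 17.2 in Col-0-b (log2 fold change 0.96, SE 0.30, limma adjusted p = 0.165). XERO1 had the lowest, -0.03. The abundant ERD14 and HIRD11, an acidic dehydrin and a small metal-binding one, had values of 0.35 and 0.31, with limma adjusted p-values of 0.176 and 0.107. XERO2, also known as LTI30, was at 0.002.

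Of 19 other cold or dehydration genes, 14 were tested, 9 with a positive and 5 with a negative value, and the median was 0.06. P5CS1, which catalyses the first step of proline synthesis, had 1214 and 1256 normalized counts in bamboo and 1666, 1500.0 and 1849 in Col-0-b. Its bamboo libraries were all lower, and the log2 difference was -0.43 (SE 0.09, adjusted p of 0.0837 in limma). GOLS3, a galactinol synthase, had the highest value at 0.40 (adjusted p = 0.325).

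ABA synthesis showed a median of -0.04 over 8 tested genes, 3 positive and 5 negative. BGLU18, a glucosidase that releases ABA from its glucose ester, had 21.4 and 17.8 normalized counts in bamboo and 12.0, 6.16 and 10.1 in Col-0-b (log2 fold change 1.02, SE 0.40, limma adjusted p = 0.239). NCED9, a relative of NCED3, had the lowest value, -0.16. Of the ABA 8'-hydroxylases, which break ABA down, CYP707A3 had 563 and 411 normalized counts in bamboo and 319.8, 317 and 397 in Col-0-b. Its log2 fold change was 0.49 (adjusted p = 0.161), and that of CYP707A1 was 0.13.

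The ABA receptors had a positive fold change in 9 of 10 tested genes, with a median of 0.16, where 49.9% of all tested genes were positive. By unadjusted p under 0.05, 3 receptors were higher, against 8.6% of all tested genes. PYL6 had 197 and 220.3 normalized counts in bamboo and 138, 144 and 95.3 in Col-0-b (log2 fold change 0.75, SE 0.18, limma adjusted p = 0.102). PYL2 had the lowest value, -0.24. The clade A phosphatases were nearly level, with a median of -0.05 over 8 tested genes and values from -0.12 for HAB2 to 0.04 for AHG1. The SnRK2 kinases and ABF factors ran from -0.07 for OST1, the kinase of stomatal closure, to 0.24 for ABF1, with a median of 0.08 over 8 genes.

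CBF1, CBF2 and CBF3, the cold-induced activators of COR genes, were low in all libraries. CBF2 had 12.1 and 8.47 normalized counts in bamboo and 10.99, 13.6 and 22.3 in Col-0-b, and at -0.52 it had the lowest value of its list (limma adjusted p = 0.550). ZAT12, a zinc finger factor of cold and oxidative stress, had the highest at 0.45 (adjusted p = 0.356). The list had 5 positive and 5 negative values.

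**Figure D4:**
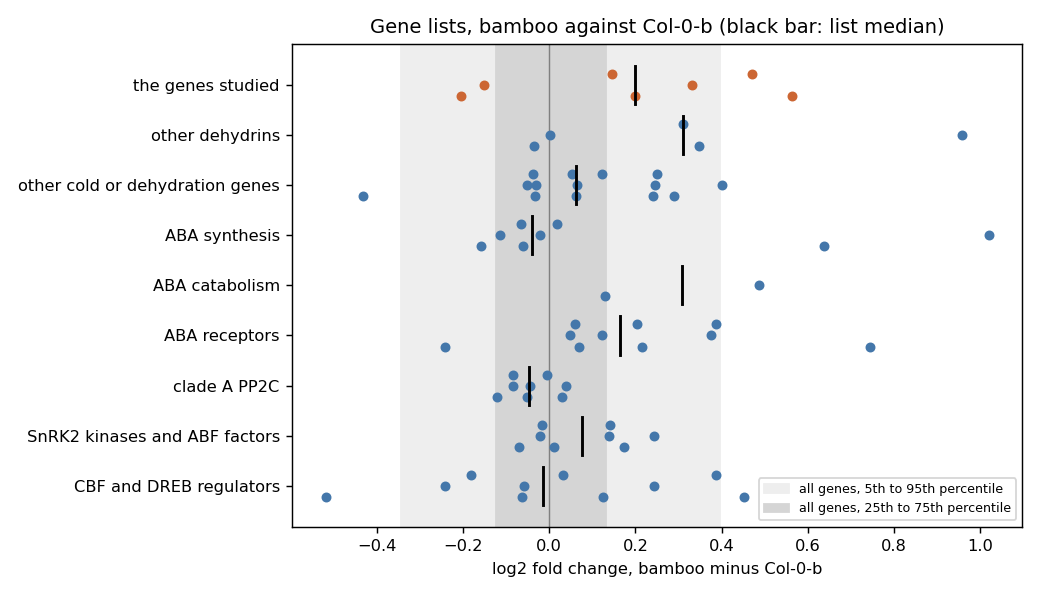
Log2 fold change, bamboo minus Col-0-b (x axis), of each tested gene in the studied set and in the 8 pathway lists; the black bar is the list median and the grey bands are percentiles of all tested genes. Most points lie between the 5th and 95th percentiles, -0.34 and 0.40, and 0 of them passed the adjusted threshold.

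Between the wild-type sets, the dehydrin family shared the higher level in Col-0. Genes of the lists are named here after their values were seen. All 5 other dehydrins that reached 0.5 CPM were at least 2-fold higher with libraries that did not overlap, 4 of them reaching that minimum in both sets. ERD14 was at 1037 ± 123 CPM in Col-0 and 439 ± 29.3 in Col-0-b (SD, n = 3 each), HIRD11 at 1366 ± 194 and 539.8 ± 24.5, and XERO2 at 290.1 ± 21.98 and 74.0 ± 8.05. Of the other cold or dehydration genes, 5 of 15 were at least 2-fold higher and 0 lower, against 4.99% and 4.71% of all genes. Of the 14 that reached the minimum in both sets 4 were higher, since COR413IM1 reached it only through Col-0. LEA7 was at 10.7 ± 3.50 CPM in Col-0 and 0.760 ± 0.108 in Col-0-b, and GOLS2, a galactinol synthase, at 8.62 ± 2.62 and 1.33 ± 0.544. The median log2 ratio was 1.502 for the other dehydrins and 0.64 for the other cold or dehydration genes.

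Some signalling genes also differed between the wild-type sets. ABF1, an ABF factor, was 4.32-fold higher in Col-0, at 31.3 ± 8.29 CPM against 7.24 ± 0.216. The phosphatase HAI1, itself strongly ABA-induced, was 2.24-fold higher, at 20.0 ± 2.66 against 8.94 ± 0.620. Of the receptors, PYL7 was at least 2-fold higher in Col-0, and PYL2, PYL3 and PYL4 were lower, of which PYL3 reached 0.5 CPM in 2 libraries only through Col-0-b. PYL4 was at 55.6 ± 16.6 CPM in Col-0 and 189 ± 10.3 in Col-0-b. None of the 10 CBF and DREB regulators that reached 0.5 CPM differed in this way. Over all 8 lists, 17 of 66 genes were at least 2-fold higher and 3 were lower, against 4.99% and 4.71% of all genes. Of the 62 that reached the minimum in both sets, 14 were higher and 2 lower.

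**Figure D5:**
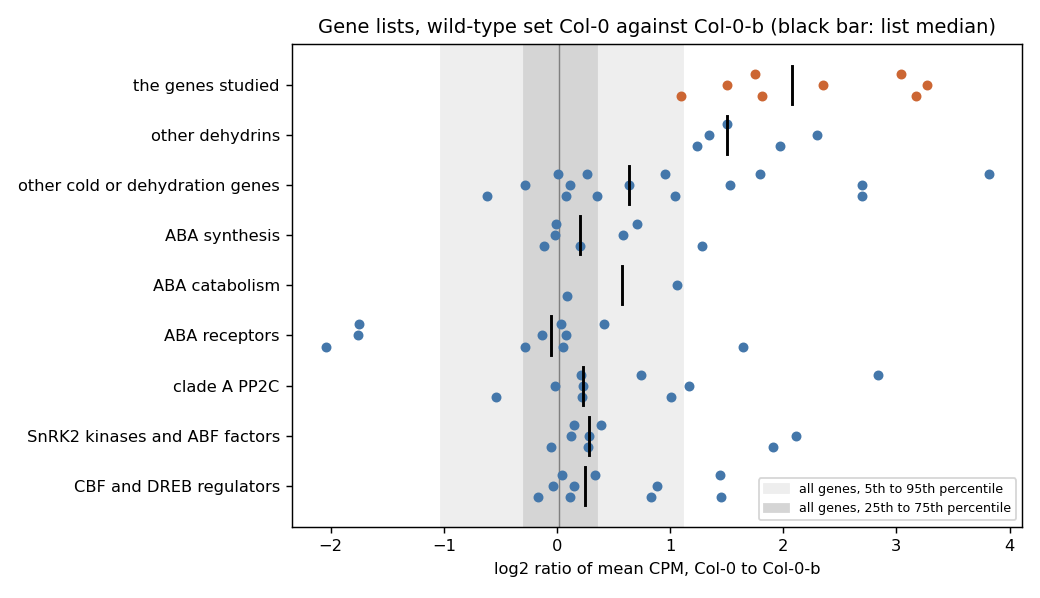
Log2 ratio of mean CPM, Col-0 to Col-0-b (x axis), of each gene that reached 0.5 CPM, for the studied genes and the 8 pathway lists; black bars are list medians and grey bands are percentiles of all genes. The studied genes lie between 1.10 and 3.27, with 7 of 8 above the 95th percentile of 1.11.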

How the data were processed

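Whole-root RNA-seq of 14-day-old plants was used from 8 of the 17 samples: bamboo (2), Col-0-b (3) and Col-0 (3). Libraries were single-end stranded mRNA, per the labels. The submitters' processing notes name Trimmomatic, STAR 2.7.2a, Subread 1.6.5 with featureCounts, and TAIR10, and give no strand setting. Col-0 values are raw counts, as the authors deposited them. The table of bamboo and Col-0-b, as deposited, holds a normalized signal, in which a gene's reads were divided by 1 factor per library; no source used here says how the authors made these factors. All values (100%) were whole multiples of a step in each column within 0.01, so reads were recovered by division. The names of the WT columns do not say which wild type they are; they were read as Col-0-b, since the other table has columns named for Col-0. The count table holds 6 more columns, which could not be tied to a line by name and were not used. CPM is reads scaled to the total of counted reads in the library.

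Genes with at least 10 normalized counts in at least 2 of 5 libraries (20274) were tested on log2(normalized count + 1) with limma 3.58.1 in R 4.3.3 (trended, robust, group as the only term, Benjamini-Hochberg adjustment over all genes at 0.05). On this scale the change of low genes is understated. Alternatives were a pseudocount of 8, no filter, TMM-rescaled values, edgeR 4.0.16 and DESeq2 1.42.0 on recovered reads, a replicate block and leaving out each library. The wild-type sets were compared by mean CPM with no test; TMM scaling and leaving out libraries there were added after seeing the data. All 9 genes are named; of each list, called genes and the highest and lowest fold change. Genes named otherwise were chosen after their values were seen. The genes and lists were chosen with earlier results of these data known. Symbols come from RefSeq TAIR10.1, which held 37051 of 37336 features. Nothing says that replicates were grown separately, so p-values measure the spread between these libraries, which may be technical. The 95% intervals come from the same fit and the same spread, while the limits for a count of 0 cover counting error only.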

Additional observations from a re-analysis of the deposited data

How the results depend on the processing

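The count of the 7 tested genes called was 0 and stayed 0 with a pseudocount of 8, no filter, TMM-rescaled values and edgeR; it was 2 with DESeq2 and 2 with a replicate block (COR47 and KIN2 each time), and 0 to 1 when 1 library was left out. COR47 had a log2 fold change of 0.46 with DESeq2 and 0.49 with the block (adjusted p = 0.0386), and 0.37 to 0.55 with 1 library left out. KIN2 had 0.55, 0.47 (adjusted p = 0.0120) and 0.47 to 0.70. RAB18 turned to 0.26 with the block, and ran from -0.78 to 0.37 with 1 library left out. The ranges were 0.14 to 0.25 for ERD10, 0.08 to 0.18 for KIN1, 0.30 to 0.36 for RD29A and -0.27 to -0.04 for NCED3. Over all genes, 14 were higher and 13 lower, against 188 and 115 with DESeq2, 46 and 29 with no filter, 513 and 379 with the block, and 6 to 894 and 4 to 1052 with 1 library left out. Leaving out bamboo replicate 3 gave the largest numbers; with 1 bamboo library left, its spread is assumed equal to that of Col-0-b. Of the other pathway genes, 0 were called, 3 with DESeq2, 8 with the block and 0 to 6 with 1 library left out. The cause of these differences was not tested. The groups share only 2 replicate numbers, whose deviations correlated at 0.04 and 0.10, and nothing in the labels pairs them. Col-0-b replicate 1 has no bamboo partner in the block, whose fold changes equal those without that library. In the fit without that library, limma's adjusted p was 0.220 for COR47 and 0.225 for KIN2, so neither was called. The count of 8 genes at least 2-fold higher in Col-0 was 8 in each alternative run, but those runs had little room to change it. Depth limits RD29B and RAB18, since 3 reads are 2.54 to 3.70 normalized counts.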
